A study of Mus with 9 samples.

Results

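The epidermal growth factor (EGF) family was followed at the mRNA level in mouse kidney through 10 genes of the 54532 in the deposited table. They were taken by gene symbol, 6 of them encoding ligands (Egf, Hbegf, Areg, Tgfa, Ereg and Btc) and 4 encoding the ErbB receptors (Egfr, Erbb2, Erbb3 and Erbb4), and each symbol matched 1 gene. All 10 are described below in every library, and 8 of them had enough counts to be tested.

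The ligands are made as membrane-bound precursors and are released by proteases of the ADAM family. A released ligand binds an ErbB receptor, the receptor pairs with another ErbB receptor, and the pair signals through RAS, RAF and ERK, among other routes. EGF, transforming growth factor α (Tgfa) and amphiregulin (Areg) bind EGFR, whereas heparin-binding EGF (Hbegf), betacellulin (Btc) and epiregulin (Ereg) bind EGFR and ERBB4. ERBB2 has no known ligand and acts as a partner of the other receptors, and ERBB3 has little kinase activity of its own and binds neuregulins. In the kidney, EGF is made mostly by the thick ascending limb and the distal convoluted tubule, where it regulates magnesium reabsorption, and it is known to support tubular repair.

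The kidneys came from male C57BL/6 mice. Each of the groups 18 mo, 21 mo and 21 mo/O304 held 3 libraries, numbered by the labels as replicates. Each library is taken below as 1 mouse, and the sources do not state whether RNA of several mice was combined. All mice lost a kidney by unilateral nephrectomy at 18 months of age. The 18 mo group was killed 1 week later without injections, the 21 mo group received saline for 12 weeks, and the 21 mo/O304 group received O304, a small-molecule activator of the energy-sensing kinase AMPK, at a daily intraperitoneal dose of 10 mg/kg over the same 12 weeks. Against the 18 mo group, the others thus differed at once in age, in the time since surgery and in having been injected, and these cannot be told apart.

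Libraries held between 15636378 and 18396725 counts on genes, at which 1 count was worth 0.0458 to 0.0669 CPM (counts scaled to the library's total, with edgeR's TMM factors). Kidney marker genes of the proximal tubule, the thick ascending limb and the podocyte were detected in all 9 libraries. The 21 mo group was uneven, with a biological coefficient of variation of 44%, against 18% in 18 mo mice and 20.6% in 21 mo/O304 mice. Replicates 2 and 3 of the 21 mo group stood apart from the other libraries. The 12 injured tubule markers summed to 14721 and 18270.3 CPM there, and to between 1162 and 1856 CPM in the other 7 libraries. The values of single 21 mo mice are therefore given beside each result.

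In the coordinates of the authors' table (GRCm38), Egf lies on chromosome 3 from 129677565 to 129755316 on the minus strand, and Tgfa lies on chromosome 6 from 86195223 to 86275719. Areg (chromosome 5 from 91139599 to 91148432), Ereg (chromosome 5 from 91074622 to 91093646) and Btc (chromosome 5 from 91357261 to 91402994) share a stretch of 375.5 kb with Epgn, the gene of the related ligand epigen. Hbegf lies on chromosome 18. Egfr and Erbb2 are both on chromosome 11, from 16752203 to 16918158 and from 98412470 to 98437716. Erbb3 is on chromosome 10 from 128567523 to 128589652. Erbb4 spans 1075.9 kb of chromosome 1, from 68032186 to 69108059, and is the longest of the 10 genes. The values below cover all exons of each gene. Erbb2 overlaps Mien1 on the opposite strand, and the sources do not state whether counting used the strand, so reads of the shared part cannot be assigned with certainty. The genes overlapping Erbb2 held 4277 counts over the 9 libraries and Erbb2 held 9822. The 4 genes overlapping Egf held 179 counts against 128057 of Egf.

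Per gene length, Egf was the most abundant of the 10 mRNAs. Its FPKM (fragments scaled by gene length and library size, as deposited) was 89.6 ± 23.1 in 18 mo mice, 44.8 ± 51.6 in 21 mo mice and 89.4 ± 12.1 in 21 mo/O304 mice (SD, n = 3 each). In the 18 mo group Erbb3 followed at 14.6 ± 2.68 FPKM and Erbb2 at 12.7 ± 1.91 FPKM, and these overlapped between mice. Hbegf stood at 9.25 ± 3.82 FPKM and overlapped Erbb2. Egfr at 4.85 ± 0.398 FPKM was below Hbegf and above Erbb4 without overlap. Erbb4 at 1.69 ± 1.24 FPKM, Btc at 1.04 ± 0.571 FPKM and Tgfa at 0.682 ± 0.244 FPKM overlapped each with its neighbour. Areg and Ereg were at the end of the order, at 0.0151 FPKM and at 0 in 18 mo mice. The order in 21 mo/O304 mice was the same for all 10 genes. In the 21 mo group Erbb2 and Erbb3 exchanged places with overlapping values, and Egf overlapped Erbb2 because of replicate 3, in which Egf stood at 2.91 FPKM.

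The makeup of the ligand mRNA differed between the 21 mo mice more than between any other mice. Egf made up 84.5% to 92.9% of the summed ligand FPKM in 7 libraries. In the 21 mo group it made up 92.9% in replicate 1, 64.8% in replicate 2 and 16.3% in replicate 3. In replicate 3 Hbegf held 66.2% of the ligand FPKM, against 22.9% in replicate 2 and 4.76% in replicate 1. The summed FPKM of all 6 ligands was 110.2 in replicate 1, 45.0 in replicate 2 and 17.8 in replicate 3, and lay between 77.4 and 124 in the 6 libraries of the other groups. The 5 ligands other than Egf summed to 7.82 to 15.8 FPKM over the 9 libraries. The summed FPKM of the 4 receptors moved less, between 28.6 and 38.3. The ratio of Egf to Egfr in FPKM was 16.1, 5.59 and 0.512 in 21 mo replicates 1 to 3, and between 14.0 and 25.8 in the other libraries.

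**Figure D1:**
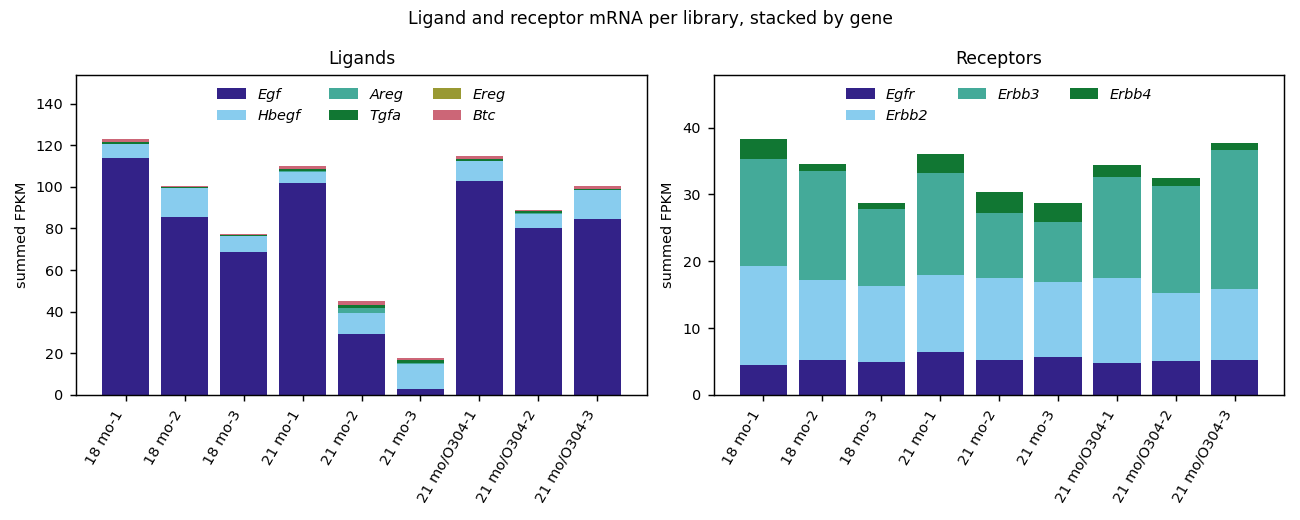
Summed FPKM (vertical axis) of the 6 ligand genes and the 4 receptor genes in each of the 9 libraries (horizontal axis, group and replicate), stacked by gene and drawn on separate scales for the 2 panels. The ligand bars of 21 mo replicates 2 and 3 are the lowest, at 45.0 and 17.8 FPKM, and Hbegf is the largest part of the last, whereas the receptor bars stay between 28.6 and 38.3 FPKM.

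In CPM, the scale on which a single gene is compared between libraries, Egf stood at 1346, 984 and 797 CPM in replicates 1 to 3 of the 18 mo group. It stood at 1191, 339 and 34.1 CPM in 21 mo mice and at 1199, 934 and 984 CPM in 21 mo/O304 mice. 21 mo replicate 1 was thus inside the range of the 18 mo group, while replicate 2 was 3.08-fold and replicate 3 was 30.5-fold below the 18 mo mean. The lowest of these values rests on 745 counts. The highest 21 mo mouse had 34.9 times the Egf CPM of the lowest. Of the 15902 genes tested, 4.63% had a spread of at least 10 times within 21 mo mice.

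Tgfa, which encodes the second classical ligand of EGFR, stood at 6.5, 3.33 and 3.9 CPM in 18 mo mice and at 7.43, 6.99 and 9.62 CPM in 21 mo mice. It stood at 5.7, 4.89 and 2.23 CPM in 21 mo/O304 mice. All 21 mo mice were above all other mice for Tgfa. Hbegf stood at 16.2, 32.9 and 18.6 CPM in 18 mo mice, at 12.8, 25.2 and 29.1 CPM in 21 mo mice and at 23.4, 16.6 and 33.6 CPM in 21 mo/O304 mice, and the 3 groups overlapped. Btc stood at 7.99, 3.51 and 3.05 CPM in 18 mo mice, at 6.09, 8.75 and 4.63 CPM in 21 mo mice and at 5.82, 4.17 and 5.6 CPM in 21 mo/O304 mice. These groups overlapped as well.

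Areg and Ereg were rare. Areg, which encodes amphiregulin, had 0, 0 and 1 counts in 18 mo mice, 3, 57 and 13 counts in 21 mo mice and 1, 6 and 6 counts in 21 mo/O304 mice. Every 21 mo mouse had more Areg than every 18 mo mouse, and replicate 2 held most of the reads. The closest mice, with 3 counts and 1 count, were both within the 3 counts that a count of 0 allows. Ereg, which encodes epiregulin, had 0 counts in all 18 mo mice, 0, 2 and 22 counts in 21 mo mice and 1, 0 and 0 counts in 21 mo/O304 mice. A count of 0 allows up to 0.17 to 0.186 CPM in the 18 mo libraries (3 counts). Only 21 mo replicate 3 had more than 3 counts of Ereg.

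Among the receptors, Egfr was the steadiest across mice. It stood at 52.4, 60.3 and 57.1 CPM in 18 mo mice, at 74.3, 60.9 and 67.0 CPM in 21 mo mice and at 55.1, 58.6 and 60.6 CPM in 21 mo/O304 mice. The lowest 21 mo mouse, at 60.9 CPM, was just above the highest mice of both other groups. Erbb2 stood at 81.0, 63.0 and 61.0 CPM in 18 mo mice, at 62.5, 66.2 and 60.5 CPM in 21 mo mice and at 68.7, 54.9 and 56.7 CPM in 21 mo/O304 mice, with overlap throughout. Erbb3 stood at 99.6, 101 and 71.4 CPM in 18 mo mice and at 94.9, 60 and 56.2 CPM in 21 mo mice. It stood at 93.8, 99.1 and 129.6 CPM in 21 mo/O304 mice. Replicates 2 and 3 of the 21 mo group were the lowest of the 9 mice for Erbb3, and replicate 1 overlapped both other groups.

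Erbb4, the receptor of neuregulins and betacellulin, stood at 40.3, 12.1 and 12.5 CPM in 18 mo mice, at 36.1, 39.6 and 35.9 CPM in 21 mo mice and at 21.7, 15.5 and 12.4 CPM in 21 mo/O304 mice. The 3 mice of the 21 mo group agreed within 1.1 times for Erbb4, although they differed 34.9 times for Egf. The first mouse of the 18 mo group was the highest of all 9 mice, and the other 18 mo mice were among the lowest 3. The ratio of Erbb3 to Erbb4 in FPKM was 5.08, 17.0 and 11.7 in 18 mo mice, 5.4, 3.11 and 3.21 in 21 mo mice and 8.86, 13.1 and 21.4 in 21 mo/O304 mice.

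**Figure D2:**
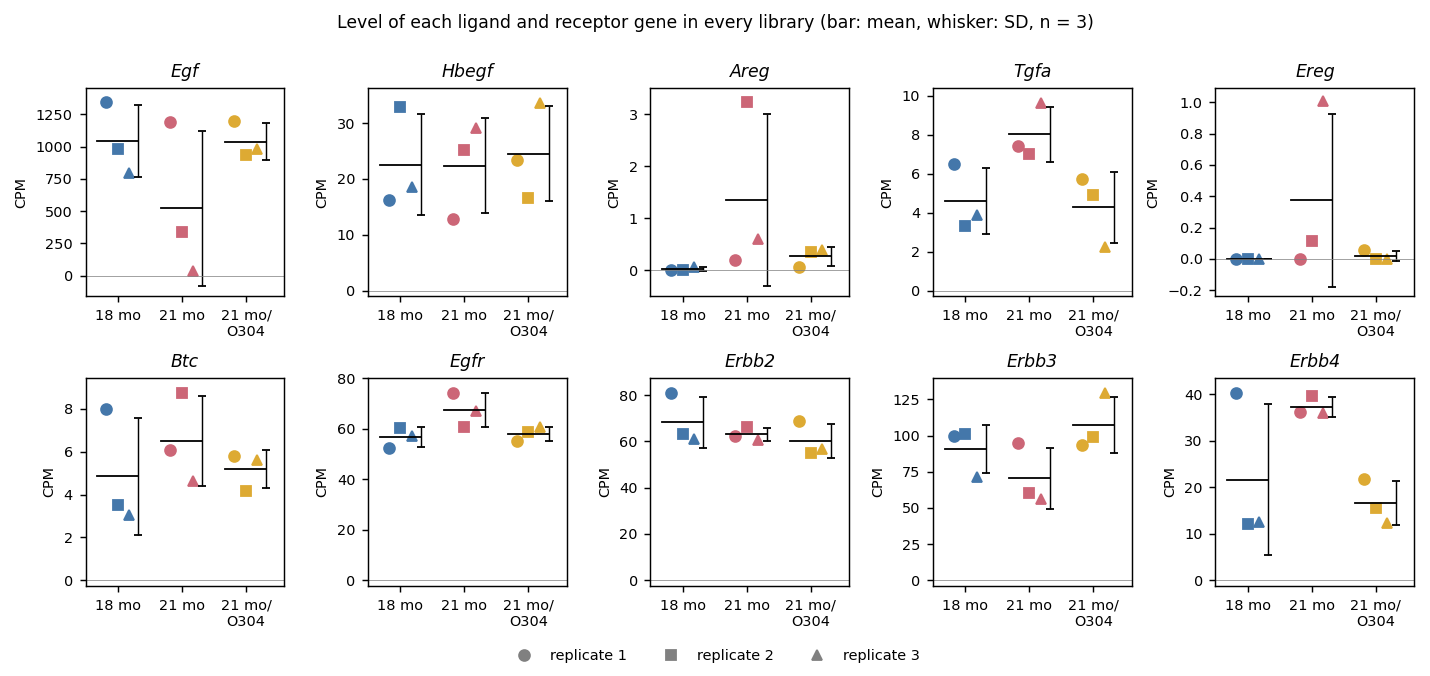
CPM (vertical axes, linear, 1 scale per gene) of the 10 genes in each of the 9 libraries, by group on the horizontal axis, with the marker shape giving the replicate, the bar the group mean and the whisker the SD over 3 mice. Egf is spread over 1191, 339 and 34.1 CPM in 21 mo mice, while Erbb4 lies between 35.9 and 39.6 CPM in the same mice.

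The comparison of 21 mo with 18 mo asks how the family differed in older mice. Egf had a mean of 521 ± 599.9 CPM in 21 mo mice and 1042 ± 279 CPM in 18 mo mice (SD, n = 3 each). In edgeR's quasi-likelihood test its log2 fold change was −1.0 (adjusted p = 0.489, SE 0.89), and mice within a group were spread more widely than the groups were. Tgfa stood at 8.01 ± 1.41 against 4.58 ± 1.69 CPM, Egfr at 67.4 ± 6.73 against 56.6 ± 3.96 CPM and Erbb4 at 37.2 ± 2.1 against 21.6 ± 16.1 CPM. None of the 8 tested genes passed an adjusted p of 0.05 in edgeR, and 0 had an unadjusted p under 0.05. Over all genes tested, the percentages were 0.0189% and 26.1%.

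The log2 fold change was 0.81 for Tgfa (adjusted p = 0.215, SE 0.38, edgeR), 0.25 for Egfr (adjusted p = 0.193, SE 0.11) and 0.78 for Erbb4 (adjusted p = 0.281, SE 0.44). It was −0.36 for Erbb3 (adjusted p = 0.344, SE 0.24), 0.42 for Btc (adjusted p = 0.521, SE 0.40) and −0.12 for Erbb2 (adjusted p = 0.62, SE 0.14). Hbegf was at −0.01 (adjusted p = 0.99, SE 0.38). For Tgfa and Egfr, and also for Areg, which was too rare for the fit, all 21 mo mice were above all 18 mo mice (exact permutation test, two-sided, p = 0.1 each, the smallest that 3 mice against 3 allow). For Areg this rests on 3 counts in 21 mo replicate 1 against 1 count in 18 mo replicate 3. Of all genes tested, 13.5% had all 21 mo mice above all 18 mo mice and 15.3% had all of them below, against 2 and 0 of the 8 tested genes of the family. Areg had 73 counts in 21 mo mice and 1 in 18 mo mice. The ratio was 67.2-fold, with an interval of 11.7 to 2690 (exact, 95%), which covers counting error only and not the spread between mice. Without 21 mo replicate 2, which held 57 of the 73 counts, Areg stood at 0.398 CPM against 0.0189 CPM, a ratio of 21.1-fold. Ereg was at least 2.08-fold higher in 21 mo mice, from 24 counts against a floor of 3 counts per library, but the groups overlapped (exact permutation test, two-sided, p = 0.4). Replicate 3 held 22 of the 24 counts, and without it Ereg stood at 0.0568 CPM, below the floor of 0.18 CPM, so that no bound was left.

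The calls differed between fits, and the cause of this was not tested. DESeq2 called Areg alone among the 10 genes (log2 fold change 5.96, adjusted p = 0.00602), and it called 12.3% of all genes. It gave Areg no adjusted p in the other comparisons. With every gene of at least 1 count in edgeR's fit, Areg was the only member called (5.66, adjusted p = 0.0466), among 2.04% of all genes. Both calls rest on the same 73 counts of the 21 mo group, 57 of them from replicate 2, so neither adds support to the other. Without 21 mo replicate 1, edgeR called Areg (log2 fold change 6.16, adjusted p = 0.0115) and Erbb3 (log2 fold change −0.62, adjusted p = 0.0462), and 25.4% of all genes. Areg, which failed the main filter, entered this fit only through 21 mo replicates 2 and 3, at 57 and 13 counts. The other groups held at most 6 counts per library, so this call adds no support. Egf then stood at −2.47 (adjusted p = 0.051), and without replicate 3 it stood at −0.46. The limma voom fit with quality weights called 5 of the 8 genes, with Egf, at −1.48, and Erbb3, at −0.47, lower and with Tgfa, at 0.75, Btc, at 1.15, and Erbb4, at 1.32, higher. That fit called 52.9% of all genes and gave 21 mo replicate 2 a weight of 9.11, against 0.223 and 0.132 for replicates 1 and 3. Without 18 mo replicate 1, Erbb4 had a log2 fold change of 1.59 (adjusted p = 0.168).

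The comparison of 21 mo/O304 with 21 mo asks how the family differed in treated mice of the same age. Egf had a mean of 1039 ± 141 CPM in 21 mo/O304 mice and 521 ± 599.9 CPM in 21 mo mice, a log2 fold change of 1.00 (adjusted p = 0.515, SE 0.89, edgeR). The 21 mo mice were spread more widely than this difference, and their first replicate was as high in Egf as the treated mice. Tgfa stood at 4.27 ± 1.82 CPM in 21 mo/O304 mice against 8.01 ± 1.41 CPM, and Erbb4 stood at 16.6 ± 4.76 against 37.2 ± 2.1 CPM. Erbb3 stood at 107 ± 19.3 against 70.3 ± 21.3 CPM. None of the 8 genes passed an adjusted p of 0.05 in edgeR, where 0.0% of all genes did, and 3 of the 8 had an unadjusted p under 0.05, against 20.7% of all genes.

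These were Tgfa (log2 fold change −0.91, adjusted p = 0.23, SE 0.38), Erbb3 (0.61, adjusted p = 0.206, SE 0.24) and Erbb4 (−1.17, adjusted p = 0.202, SE 0.44). The log2 fold change of Egfr was −0.21 (adjusted p = 0.293, SE 0.11). Those of Btc, Erbb2 and Hbegf were −0.32, −0.07 and 0.13, with adjusted p from 0.646 to 0.855. For Tgfa, Egfr and Erbb4 all treated mice were below all 21 mo mice (exact permutation test, two-sided, p = 0.1 each). Of all genes tested, 10.5% had all treated mice below all 21 mo mice and 10.8% had all of them above, against 3 and 0 of the 8 tested genes of the family. Areg had 13 counts in 21 mo/O304 mice against 73, a ratio of 5.13-fold lower with an interval of 2.82 to 10.1, for counting error only. Its mice overlapped those of the 21 mo group.

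Markers of fat tissue moved with the treated group. The 10 adipocyte markers summed to 308, 114 and 257 CPM in 21 mo/O304 mice, to 38.9 to 130.2 CPM in 21 mo mice and to 47.3 to 91.5 CPM in 18 mo mice. Adipoq, which encodes the fat cell hormone adiponectin, stood at 21.6, 1.97 and 15.1 CPM in 21 mo/O304 mice and at 0.0669, 0 and 0.504 CPM in 21 mo mice. In 18 mo mice it stood at 0, 0 and 1.41 CPM. Of the 7 tested markers, 5 were higher in 21 mo/O304 than in 21 mo mice at an unadjusted p under 0.05, against 8.27% of all genes. None of the 7 markers passed an adjusted p of 0.05 in edgeR. Their median was 4.39 on the log2 scale. The part of fat tissue in the values of the family was not tested.

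Without 21 mo replicate 1, edgeR called Erbb3 in this comparison (log2 fold change 0.88, adjusted p = 0.0185), among 23.1% of all genes. Egf then had a log2 fold change of 2.47 (adjusted p = 0.0538), and of 0.45 without replicate 3. The limma voom fit with quality weights called Egf (1.60), Btc (−0.76), Erbb3 (0.80) and Erbb4 (−1.27), among 41.1% of all genes, and DESeq2 called none of the family and 6.07% of all genes. Both comparisons share the 21 mo mice, so their values are not independent of each other.

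Between 21 mo/O304 and 18 mo, the log2 fold changes of the 8 genes lay between −0.38 for Erbb4 and 0.25 for Erbb3, with adjusted p of at least 0.716 (edgeR). Egf was at −0.00 (adjusted p = 1.0, SE 0.88), with means of 1039 ± 141 and 1042 ± 279 CPM. None of the 8 passed an adjusted p of 0.05 and none had an unadjusted p under 0.05, where 0.0% and 9.66% of all genes did. DESeq2 and limma voom called none of the family, and 0.869% and 2.61% of all genes. Among the 8, none had groups without overlap, against 13.2% of all genes higher and 13.3% lower in the treated mice. Areg had 13 counts against 1, and its groups did not overlap in CPM (exact permutation test, two-sided, p = 0.1). That rests on library scaling alone, as 21 mo/O304 replicate 1 and 18 mo replicate 3 had 1 count each.

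**Figure D3:**
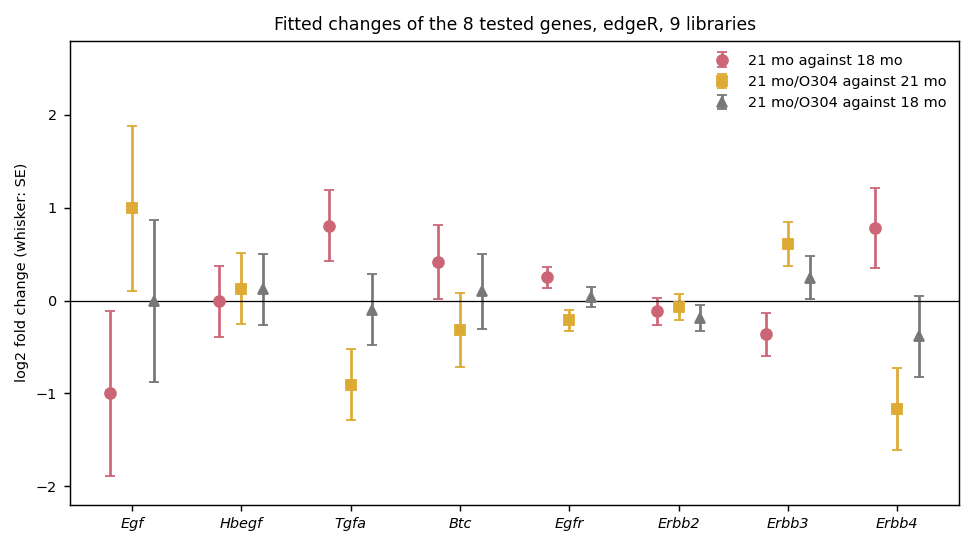
Log2 fold change (vertical axis) of the 8 tested genes (horizontal axis) in the 3 comparisons, from edgeR's fit to all 9 libraries, with whiskers of 1 SE. Egf has the widest whiskers, 0.89 around −1.0 and 1.00, and Egfr the narrowest, 0.11 around 0.25 and −0.21.

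Egf was then set beside other genes of the tubule segments that make it. In bulk kidney RNA, fewer cells of a type and less RNA per cell cannot be told apart. The 8 thick limb markers, which include the uromodulin gene Umod and the Na-K-2Cl cotransporter gene Slc12a1, had a mean of 6.4, 6.73 and 5.94 log2 CPM in 21 mo replicates 1 to 3 and of 5.66 to 6.83 in 18 mo mice. The 8 distal convoluted tubule markers, which include the thiazide-sensitive cotransporter gene Slc12a3, had a mean of 6.32, 5.17 and 4.83 log2 CPM in 21 mo mice and of 6.16 to 6.7 in 18 mo mice. As differences from the 18 mo mean on the log2 scale, replicate 3 had −0.21 for the thick limb genes, −1.6 for the distal convoluted tubule genes and −4.89 for Egf.

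Relative to the mean of both lists (16 genes), Egf stood 3.9, 3.76 and 3.45 log2 units higher in 18 mo mice and 3.86 and 2.45 higher in 21 mo replicates 1 and 2. In replicate 3 the same difference was −0.29, so that Egf was below the mean of the lists. In the 21 mo/O304 group it stood 3.7, 3.64 and 3.86 log2 units above the lists. The difference of means was −1.7 between 21 mo and 18 mo and 1.73 between 21 mo/O304 and 21 mo (exact permutation test, two-sided, p = 0.3 each). The 21 mo mice thus differed more from each other than the group means did.

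Single genes of these segments went different ways in the same mice. Umod stood at 4479, 4360.5 and 2008 CPM in 21 mo mice and at 4767, 1886 and 2271 CPM in 18 mo mice. Slc12a3 stood at 565, 340.0 and 244 CPM in 21 mo mice and at 624, 880.2 and 786 CPM in 18 mo mice. For 4 of the 8 genes listed for the distal convoluted tubule (Slc12a3, Pvalb, Trpm7 and Klhl3), the 21 mo mice came in the order of Egf. That order, replicate 1 above 2 above 3, also held for 5 of the 8 thick limb markers. In the other 4 genes listed for the distal convoluted tubule (Trpm6, Calb1, Wnk4 and Slc8a1) replicate 3 was above replicate 2. How particular the listed genes are to their segment was not tested. Calb1, which encodes the calcium-binding protein calbindin, stood at 239, 186 and 293 CPM in 21 mo mice.

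**Figure D4:**
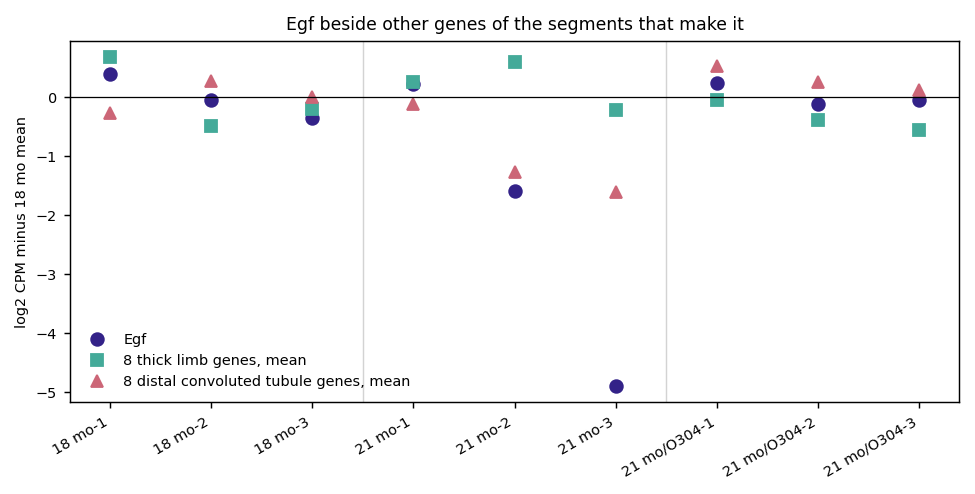
Log2 CPM minus the mean of the 18 mo group (vertical axis) in each of the 9 libraries (horizontal axis) for Egf, for the mean of 8 thick limb genes and for the mean of 8 distal convoluted tubule genes. In 21 mo replicate 3 Egf is at −4.89, the distal convoluted tubule genes at −1.6 and the thick limb genes at −0.21, while the treated mice lie within 0.55 of the 18 mo mean.

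Over 21 mo replicates 1 to 3, in which Egf fell, the proximal tubule markers also fell, whereas the macrophage and fibroblast markers rose. The 10 proximal tubule markers summed to 15521, 7776 and 2136 CPM in 21 mo replicates 1 to 3 and to 14040.4 to 17687 CPM in the other libraries. The 10 macrophage markers summed to 792, 1229.6 and 3766 CPM in 21 mo mice, to 313 to 528 CPM in 18 mo mice and to 594 to 639 CPM in 21 mo/O304 mice. The 10 fibroblast markers summed to 178, 670.2 and 1765 CPM in 21 mo mice and to 140.3 to 347 CPM in the others. No marker of these 3 lists was at 0 in any library. Some other lists also followed the order of Egf in 21 mo replicates 1 to 3 or its reverse, and some did not. The 10 endothelial markers summed to 669, 479 and 446 CPM there, and the 12 injured tubule markers to 1856, 14721 and 18270.3 CPM. In neither order were the 10 T and B cell markers, at 64.4, 42.5 and 68.9 CPM, and the 10 collecting duct markers, at 526, 769 and 412 CPM. The part of these cells in the Egf values was not tested.

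The 8 urothelium markers summed to 5.69, 52.8 and 331 CPM in 21 mo mice and to 1.57 to 4.15 CPM in the other groups. The uroplakin gene Upk3a stood at 0.803, 12 and 51.6 CPM in 21 mo mice, and 2 of the 8 markers were at 0 in replicate 1 and none in replicates 2 and 3. The part of urothelial tissue in the Ereg and Areg counts was not tested. None of the listed markers passed an adjusted p of 0.05 in edgeR for 21 mo against 18 mo or for 21 mo/O304 against 21 mo. All 12 injured tubule markers had an unadjusted p under 0.05, higher in the first comparison and lower in the second. Of all genes tested, 14.0% were higher in the first and 12.4% lower in the second at that threshold. The injured tubule markers summed to 1856 CPM in 21 mo replicate 1, against 14721 and 18270.3 CPM in replicates 2 and 3.

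The thick limb markers moved with Erbb4 in 18 mo mice. Their sum was 7733, 2845 and 3289.8 CPM there, beside Erbb4 at 40.3, 12.1 and 12.5 CPM. In the 21 mo group the sum was 6665, 6331 and 3000.2 CPM, beside Erbb4 at 36.1, 39.6 and 35.9 CPM, so that replicate 3 had a low sum and an Erbb4 level like that of the others. In the 21 mo/O304 group the sum was 4023, 2649.6 and 2230.1 CPM, in the same order as Erbb4. The part of thick limb tissue in the Erbb4 values was not tested.

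Of the 5 other ligand genes of ErbB receptors, Nrg1 and Nrg4 were tested. Nrg1, which encodes neuregulin 1, a ligand of ERBB3 and ERBB4, stood at 10.5, 15.7 and 8.6 CPM in 18 mo mice, at 25.0, 23.2 and 25.5 CPM in 21 mo mice and at 20.1, 24.9 and 13.4 CPM in 21 mo/O304 mice. Its log2 fold change for 21 mo against 18 mo was 1.09 (adjusted p = 0.076, SE 0.27, edgeR), with every 21 mo mouse above every 18 mo mouse, and that for 21 mo/O304 against 21 mo was −0.33 (adjusted p = 0.461, SE 0.26). Nrg4, which encodes a neuregulin that binds ERBB4, stood at 2.42, 2.4 and 2.09 CPM in 18 mo mice, at 1.34, 1.19 and 0.687 CPM in 21 mo mice and at 1.98, 2.98 and 2.87 CPM in 21 mo/O304 mice. All 21 mo mice were below all others for Nrg4. Its log2 fold changes were −1.11 (adjusted p = 0.101, SE 0.35) and 1.29 (adjusted p = 0.175, SE 0.35). Epgn and Nrg2 were too rare to test, and Nrg3 was at 0 counts in all libraries.

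The genes that release the ligands and carry the signal were described by list. No gene of any of these lists passed an adjusted p of 0.05 in any comparison in edgeR, and their counts at an unadjusted p under 0.05 are given against those of all genes. Of all genes tested, 14.0% were higher and 12% lower in 21 mo mice at that threshold (26.1% in all), and 8.27% were higher and 12.4% lower in 21 mo/O304 mice against 21 mo mice (20.7% in all). Of 12 genes for ligand shedding, 3 were higher and 1 was lower in 21 mo mice at an unadjusted p under 0.05, against 26.1% of all genes, with a median log2 fold change of 0.39 against 0.03 over all genes. Adam10, which encodes the main sheddase of EGF and betacellulin, had a log2 fold change of 0.65 (adjusted p = 0.0679, SE 0.15), with means of 69.8 ± 4.25 CPM at 18 mo and 109.7 ± 21.2 CPM at 21 mo. Rhbdf2, which encodes the partner iRhom2 of the sheddase ADAM17, had 1.19 (adjusted p = 0.0702, SE 0.28) in this comparison and −0.95 (adjusted p = 0.175, SE 0.28) for 21 mo/O304 against 21 mo. In the latter 1 gene of the list was higher and 4 were lower at an unadjusted p under 0.05, against 20.7% of all genes, with Adam12 at −2.14 (adjusted p = 0.175, SE 0.59).

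Of 17 tested partners and regulators of the receptors, 6 were higher and 0 lower in 21 mo mice at an unadjusted p under 0.05, and 0 were higher and 8 lower in 21 mo/O304 mice against it, where 26.1% and 20.7% of all genes were under that threshold. The medians were 0.23 and −0.29, where all genes had 0.03 and −0.02. Cd44, which encodes a hyaluronan receptor that also presents heparin-binding EGF, stood at 10.4, 39.0 and 36.9 CPM in 21 mo mice and at 3.03 to 6.45 CPM in 18 mo mice (log2 fold change 2.45, adjusted p = 0.0631, SE 0.53). Muc1, which encodes a mucin that binds EGFR, stood at 13.2, 49.7 and 91.8 CPM in 21 mo mice and at 8.08, 4.83 and 7.19 CPM in 21 mo/O304 mice (log2 fold change −2.94, adjusted p = 0.175, SE 0.66). Socs3, which encodes an inhibitor of cytokine receptor signaling, stood at 10.6, 31.3 and 139 CPM in 21 mo mice and had log2 fold changes of 2.92 (adjusted p = 0.081, SE 0.77) and −2.83 (adjusted p = 0.175, SE 0.76). In these 3 genes 21 mo replicates 2 and 3 were the highest mice.

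The 28 adaptors and RAS-MAPK core genes had a median near that of all genes, at −0.04 with 21 mo set against 18 mo and −0.05 with 21 mo/O304 set against 21 mo. At an unadjusted p under 0.05, 5 were higher and 4 lower in the first, and 0 higher and 4 lower in the second, with all genes at 26.1% and 20.7%. Stat3, which encodes a transcription factor downstream of cytokine and growth factor receptors, had means of 85.9 ± 4.47, 156 ± 43.5 and 79.1 ± 2.43 CPM in the 18 mo, 21 mo and 21 mo/O304 groups. Its log2 fold changes were 0.86 (adjusted p = 0.0697, SE 0.20) and −0.98 (adjusted p = 0.175, SE 0.20). Map2k2, which encodes the ERK kinase MEK2, had a log2 fold change of −0.54 (adjusted p = 0.0718, SE 0.13) for 21 mo against 18 mo, and Map2k1, which encodes MEK1, had one of −0.32 (adjusted p = 0.18, SE 0.10) for 21 mo/O304 against 21 mo.

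Of the 12 MAPK feedback inhibitors, which ERK itself induces in many cells, 3 were higher and 1 lower in 21 mo mice at an unadjusted p under 0.05, against 26.1% of all genes, and their median was 0.32 against 0.03. Spred1 was at 0.43 (adjusted p = 0.0907, SE 0.12) and Spry4 at −0.63 (adjusted p = 0.121, SE 0.22). For 21 mo/O304 against 21 mo 0 were higher and 1 was lower, against 20.7% of all genes, namely Spred3 at −1.38 (adjusted p = 0.209, SE 0.54), and Spry4 stood at 0.47 (adjusted p = 0.255, SE 0.22). The 12 ERK-dependent early genes had a median of 1.28 for 21 mo against 18 mo, with 6 higher and 0 lower, and of −1.46 for 21 mo/O304 against 21 mo, with 1 higher and 4 lower. The shares of all genes at this threshold were 26.1% and 20.7%, and their medians 0.03 and −0.02. Myc stood at 5.2, 3.2 and 4.47 CPM in 18 mo mice, at 10, 25.5 and 23.4 CPM in 21 mo mice and at 6.86, 6.62 and 7.7 CPM in 21 mo/O304 mice. Its log2 fold changes were 2.19 (adjusted p = 0.0626, SE 0.35) and −1.48 (adjusted p = 0.175, SE 0.34), with no overlap of the 21 mo mice with the others. The mean of the 12 early genes on the log2 scale was taken minus their 18 mo mean. It was −0.1 in 21 mo replicate 1 and 1.09 and 2.09 in replicates 2 and 3. These mice had low Egf and also the highest injured tubule markers. A link of the early genes to either was not tested. Egr2, which encodes a zinc finger transcription factor, had log2 fold changes of 2.73 (adjusted p = 0.0892, SE 0.78) and −2.87 (adjusted p = 0.175, SE 0.79).

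EGF acts on the magnesium channel of the distal convoluted tubule, which Trpm6 encodes. Trpm6 stood at 11.1, 13.3 and 11 CPM in 18 mo mice, at 11.8, 8.13 and 14.7 CPM in 21 mo mice and at 32.2, 27.2 and 23.9 CPM in 21 mo/O304 mice. Every treated mouse was above every other mouse, with log2 fold changes of 1.26 against 21 mo (adjusted p = 0.175, SE 0.22) and 1.23 against 18 mo (adjusted p = 0.323, SE 0.22). Of all genes tested, 10.8% had all treated mice above all 21 mo mice, and 13.2% had them above all 18 mo mice. Egf mRNA had a mean of 1039 CPM in treated mice and 1042 CPM at 18 mo. A link between Egf and Trpm6 was not tested. Of the 9 tested genes for magnesium reabsorption, 4 were higher and 2 lower in 21 mo/O304 mice than in 21 mo mice at an unadjusted p under 0.05, against 20.7% of all genes. The lower ones included the thick limb claudin gene Cldn16, at −1.12 (adjusted p = 0.175, SE 0.24). For 21 mo against 18 mo, 1 was higher and 3 were lower, against 26.1% of all genes, among them Fxyd2, which encodes the γ subunit of the sodium pump, at −0.90 (adjusted p = 0.0928, SE 0.27).

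**Figure D5:**
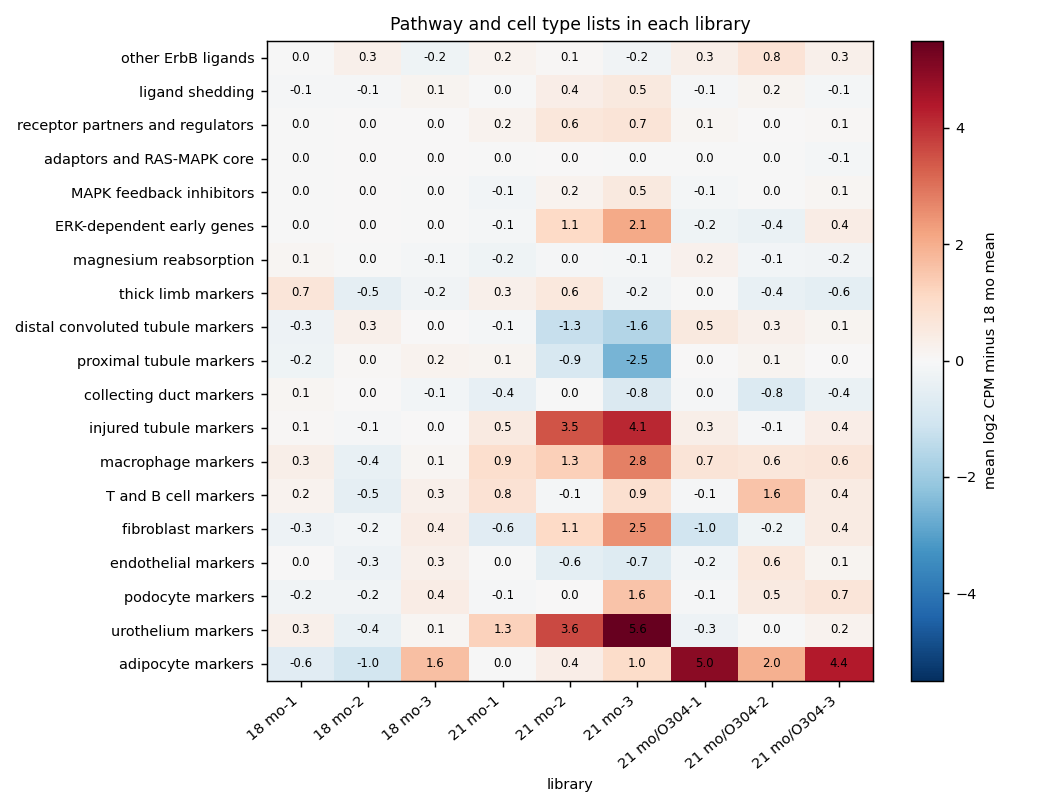
Mean log2 CPM of each pathway and cell type list minus its mean in 18 mo mice (color and printed value), with lists on the vertical axis and the 9 libraries on the horizontal axis. The ERK-dependent early genes, the injured tubule, macrophage, fibroblast and urothelium markers stand highest in 21 mo replicates 2 and 3, and the 28 adaptors and RAS-MAPK core genes stay between −0.11 and 0.03 in every library.

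The genes whose profiles over the 9 libraries were nearest to that of each member were sought among 13156 protein-coding genes with a mean of at least 1 CPM, by the root mean square difference of centred log2 CPM. Nearest to Egf were Adgrg4 (0.22), Slc22a8 (0.31) and Cyp2a4 (0.32), where the spread of Egf itself was 1.59. Slc22a8, which encodes the organic anion transporter OAT3 of the proximal tubule, stood at 694, 254 and 19.6 CPM in 21 mo mice and at 518 to 709.7 CPM in the others. Nearest to Erbb4 were Kif5c (0.14), Epha4 (0.23) and Irx2 (0.24), with an own spread of 0.73. Epha4 was also among the nearest 3 of Tgfa (0.24), after Tmc4 (0.21) and Esrp1 (0.22), with an own spread of 0.60.

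Erbb3 had Syde2 (0.11), Tefm (0.12) and Bcar3 (0.14) as its nearest genes, with an own spread of 0.37, and Btc had Tfap2b (0.23), Magi3 (0.25) and Sgpp2 (0.26), with an own spread of 0.47. For Hbegf the nearest were Ltc4s (0.25), Dimt1 (0.26) and Pus7l (0.27), with an own spread of 0.46. For Egfr they were 1600012H06Rik (0.05), Psmb2 (0.08) and Prpsap1 (0.08), and for Erbb2 they were Cyb561 (0.07), Ptdss2 (0.07) and Pard6b (0.08), but the own spreads were 0.14 and 0.16, so many genes of even level come close to them. No member of the family was among the nearest 3 genes of another member.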

How the data were processed

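The authors sequenced kidney RNA in 9 libraries, labelled as 3 numbered replicates of each group. The sources used here do not state whether each library is 1 mouse or a pool. The deposited counts are whole numbers per gene without normalization, made by the authors with HISAT2 2.0.5 and featureCounts 1.5.0-p3 on GRCm38 (tools and build from the submitters' processing notes). For the deposited FPKM, the authors divided the counts by gene length and library size. The table also holds 10 columns of the authors' own comparisons (group means, fold changes and p-values, raw and adjusted), which were not used.

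Of 54532 genes, 15902 passed edgeR's filterByExpr (minimum count 10, minimum total 15). After TMM normalization, edgeR 4.0.16 in R 4.3.3 took the 9 libraries together in a model of 3 group means (6 residual degrees of freedom), and its two-sided quasi-likelihood test was adjusted by Benjamini-Hochberg over all tested genes. Areg and Ereg did not pass the filter. log2 CPM used a prior count of 2. Single values were compared by exact permutation over mice. Depth was 15636378 to 18396725 counts, and a count of 0 was read as allowing 3 counts. The intervals of Areg ratios cover counting error only. Replicates are labelled as separate samples, and p-values measure the spread between them.

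The members, the gene lists and the tests were chosen with earlier results of these data known. Named genes are all 10 members, of each list and comparison described up to 2 with the smallest p-values (no gene of a list passed the threshold, so none was named for passing it), and the 3 nearest profiles of each tested member. Marker lists are given mainly as sums, and pathway lists for 21 mo against 18 mo and 21 mo/O304 against 21 mo. Umod, Slc12a1, Calb1 and the markers named for the order of the 21 mo mice fall outside this rule and were chosen after their values were seen. Alternatives were DESeq2 1.42.0, every gene with at least 1 count, upper-quartile normalization, the 6 libraries compared, a replicate block, limma voom 3.58.1 with quality weights, and leaving out each library. Tested on simulated data with 200 genes changed 4-fold, edgeR recovered 72% of them among 15638 genes, with 6.49% false calls, DESeq2 83.5% with 27.7%, and limma voom 70% with 7.28%. The simulation gave all 3 groups the same spread per gene. In the data the biological coefficient of variation was 18% in 18 mo, 44% in 21 mo and 20.6% in 21 mo/O304 mice. These rates therefore do not carry over to calls that involve the uneven 21 mo group. No sequences are printed.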

Additional observations from a re-analysis of the deposited data

How the results depend on the processing

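Of the log2 fold changes of the tested members under all alternatives, 329 of 360 kept their direction and 318 kept both their direction and their side of the threshold. Among the 10 genes, edgeR called 0 for 21 mo against 18 mo, and the count was 1 with DESeq2, 1 with every gene with at least 1 count (Areg, adjusted p = 0.0466), 5 with limma voom and quality weights, and 0 to 2 when 1 library was left out. For 21 mo/O304 against 21 mo the count was 0, and it was 4 with limma voom and 0 to 1 when 1 library was left out. The 2 calls for the age comparison and the 1 call for the treatment comparison came without replicate 1 of the 21 mo group. In that fit Areg passed the filter only through the remaining 21 mo mice. The calls of Areg with DESeq2 and with every gene rest on the same reads, mostly of 21 mo replicate 2. Over all genes, 21 mo against 18 mo gave 3 calls in edgeR, 2059 in DESeq2, 576 with every gene with at least 1 count, 0 with only the 6 libraries compared, 8409 with limma voom and 0 to 4186 when 1 library was left out. For 21 mo/O304 against 21 mo these were 0, with 947 in DESeq2, 17 with every gene, 6528 with limma voom and 0 to 3808 when 1 library was left out. For 21 mo/O304 against 18 mo they were 0, with 126 in DESeq2, 22 with only the 6 libraries, 415 with limma voom and 0 to 12 when 1 library was left out. The cause of these differences was not tested.

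Some log2 fold changes of members turned their sign. For 21 mo against 18 mo, Hbegf (−0.01) was 0.05 with upper-quartile normalization, 0.01 with every gene, 0.02 with only the 6 libraries and 0.26 with limma voom, and ranged from −0.26 to 0.36 when 1 library was left out, and Erbb2 was 0.01 with limma voom and ranged from −0.18 to 0.02. For 21 mo/O304 against 21 mo, Hbegf was −0.13 with limma voom and ranged from −0.17 to 0.37. For 21 mo/O304 against 18 mo, Egf was 0.01 with upper-quartile normalization, 0.01 with every gene and 0.12 with limma voom, and Erbb4 was 0.05 with limma voom. When 1 library was left out of that comparison, the ranges were −0.16 to 0.22 for Egf, −0.16 to 0.50 for Hbegf, −0.36 to 0.24 for Tgfa, −0.14 to 0.66 for Btc, −0.02 to 0.09 for Egfr and −0.67 to 0.43 for Erbb4. The Egf difference from the distal lists ranged from −2.62 to −0.55 for 21 mo against 18 mo and from 0.58 to 2.65 for 21 mo/O304 against 21 mo when 1 library was left out.

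The sources do not state whether the replicate numbers pair libraries across groups. Deviations of same-numbered libraries correlated from −0.13 to 0.175 across genes, and those of differently numbered libraries from −0.263 to 0.202. Not every library correlated best with its own number. With the replicate number as a block, 0 genes passed for 21 mo against 18 mo in place of 3, and 0 of the 10 members passed in any comparison. In that fit Egf for 21 mo/O304 against 18 mo was 0.09, for 21 mo against 18 mo it was −1.58, and for 21 mo/O304 against 21 mo it was 1.67. The ratios of Areg and Ereg rest mostly on 1 library each of the 21 mo group.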
